A study of Mus musculus with 12 samples.

Results

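Tumours treated with the dual-arm nanobody VHH-OD-PD-1-Fc were compared with tumours treated with the nanobody against PD-1 alone, VHH-PD-1-Fc. The comparison rests on 6 of the 12 RNA-seq libraries in the series, 3 per group, and on the 12937 of 41009 genes that reached an FPKM of 1 or more in 3 or more of those 6 libraries. FPKM is the number of sequenced fragments scaled to transcript length and to the size of the library. The tumours grew from 5000000 mCherry-labelled 4T1 cells, a mammary carcinoma line of BALB/c origin, implanted into the mammary fat pad of BALB/c females aged 4 to 5 weeks. Treatment was given into the peritoneum from day 7. The doses differed between the groups and were 4.3 mg/kg for VHH-OD-PD-1-Fc and 2.6 mg/kg for VHH-PD-1-Fc. The other groups, also of 3 libraries each, received the control protein Ctrl-Fc (Ctrl below) at 5 mg/kg or VHH-OD-Fc, the other arm alone, at 3.5 mg/kg. All 4 groups carry the same tumour line and an Fc protein. The labels do not spell out OD. The title of the series names endogenous digoxin-like substances, and its design text describes another tumour and does not match the sample labels. Whether each library of a group is a different mouse is not stated in the labels, and a p-value here reflects library-to-library spread only, which could be technical.

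A VHH, or nanobody, is the single variable domain with which antibodies of camels and llamas bind antigen, and the Fc part is the constant region of an antibody, which prolongs its life in blood. PD-1, encoded by Pdcd1, is a receptor on activated T cells that dampens their response when it meets its ligands on tumour or myeloid cells. Digoxin is a cardiac glycoside that inhibits the sodium pump, Na,K-ATPase, and related compounds occur in the body. Interferons, made during viral infection and in immune responses to tumours, switch on a set of antiviral genes through a complex that includes STAT2 and IRF9 and binds a short promoter element.

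The tissue labels were checked against marker genes. The epithelial keratin gene Krt18 had an FPKM of 1100 to 2059 with VHH-PD-1-Fc and 1423 to 1472 with VHH-OD-PD-1-Fc, and Epcam, an epithelial adhesion molecule, had 70.5 to 191 and 98.0 to 101. Depth, estimated from the steps between low FPKM values, was 44000000 to 52200000 counts in the 6 libraries. Genes with an FPKM above 0 numbered 30257, 25553 and 30973 in VHH-PD-1-Fc replicates 1, 2 and 3, and 30348 to 31676 with VHH-OD-PD-1-Fc. The VHH-OD-PD-1-Fc libraries stood out for how alike they were. Pearson's r between them across genes on the log2 scale was 0.990 to 0.991, against 0.949 to 0.961 within VHH-PD-1-Fc and 0.957 to 0.971 between the groups. The median SD of a gene over 3 libraries was 0.0716 in log2 units with VHH-OD-PD-1-Fc, 0.248 with VHH-PD-1-Fc, 0.134 with Ctrl and 0.118 with VHH-OD-Fc. Differences between libraries were set against counting noise on genes with 1 transcript in GENCODE M21. Among those with at least 300 counts, the median squared difference between pairs of VHH-OD-PD-1-Fc libraries was 7.31 to 8.91 times counting noise. This ratio does not show whether they came from separate tumours, and they were analysed as the 3 samples that the labels list. The same ratio was 83.9 to 93.5 within VHH-PD-1-Fc and 22.3 to 68.4 within the other 2 groups. Among genes with 1 transcript and 10 to 30 counts the order differed. The ratio was 6.25 to 6.67 for VHH-OD-PD-1-Fc, 7.602 to 15.37 for VHH-PD-1-Fc, 3.70 to 5.45 for Ctrl and 3.520 to 4.503 for VHH-OD-Fc. The test was therefore also run after the 3 dual-arm libraries were averaged and treated as 1 sample.

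The dual-arm libraries were called different from the VHH-PD-1-Fc libraries at 138 genes (1.07% of those tested, limma, Benjamini-Hochberg adjusted p under 0.05). Of these, 88 were higher (0.680%) and 50 were lower (0.386%). The split depended on scaling, with 62 higher and 60 lower after median of ratios scaling and 54 and 51 after quantile normalization. Rises ran from 0.39 to 4.60 on the log2 scale with a median of 0.77, and falls from -1.74 to -0.36 with a median of -0.77. Called genes described below include the non-coding gene Gm15850 and its neighbour Kif21b, together with Atmin, Cldn6, Areg and Jun on the higher side and Spry1, Ramp1, F13a1 and Itgb5 on the lower side. Type I interferon effector genes formed the list with the most called members, 8 of 37. The libraries of the groups did not overlap at any of the 138 genes. Among all genes tested, 14.2% did not overlap in the upward and 7.55% in the downward direction. The median log2 fold change of all genes was 0.05, and 58.8% of genes had a positive value.

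**Figure D1:**
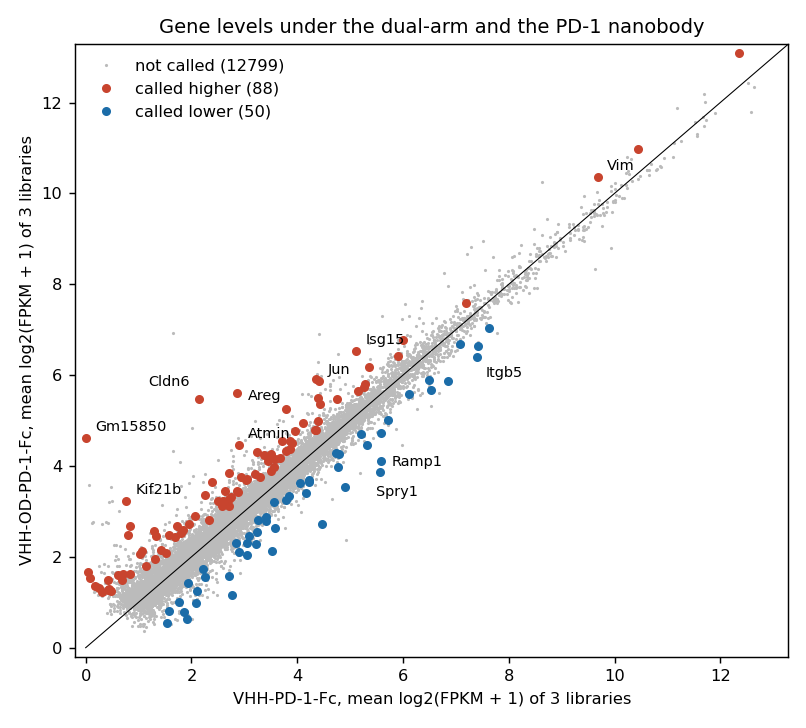
Mean log2(FPKM + 1) over 3 libraries with VHH-PD-1-Fc (x axis) and VHH-OD-PD-1-Fc (y axis) for 12937 genes; the line marks equal levels, red points the 88 genes called higher and blue points the 50 called lower. Gm15850 lies on the left edge, near 0 with VHH-PD-1-Fc, and most other called genes lie close to the line.

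The number of calls depended on which libraries entered the fit. When the 3 dual-arm libraries were treated as 1 sample, 3 calls were left, Gm15850, Kif21b and Atmin, all higher. Leaving out VHH-OD-PD-1-Fc replicate 1, 2 or 3 gave 9, 12 and 9 calls. Leaving out VHH-PD-1-Fc replicate 1, 2 or 3 gave 533, 256 and 595. The spread is shared by all 4 groups, so the other libraries also bore on the count, which was 45, 47 and 70 without VHH-OD-Fc replicate 1, 2 or 3 and 206, 80 and 47 without Ctrl replicate 1, 2 or 3. The 6 compared libraries alone gave 47 calls, of which 21 were among the 138, and 1 quality weight per group gave 14. Across 23 such settings, 70 of the 138 genes were called in at least 10 and 7 in at least 22, and the support of each gene is given with its values.

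**Figure D2:**
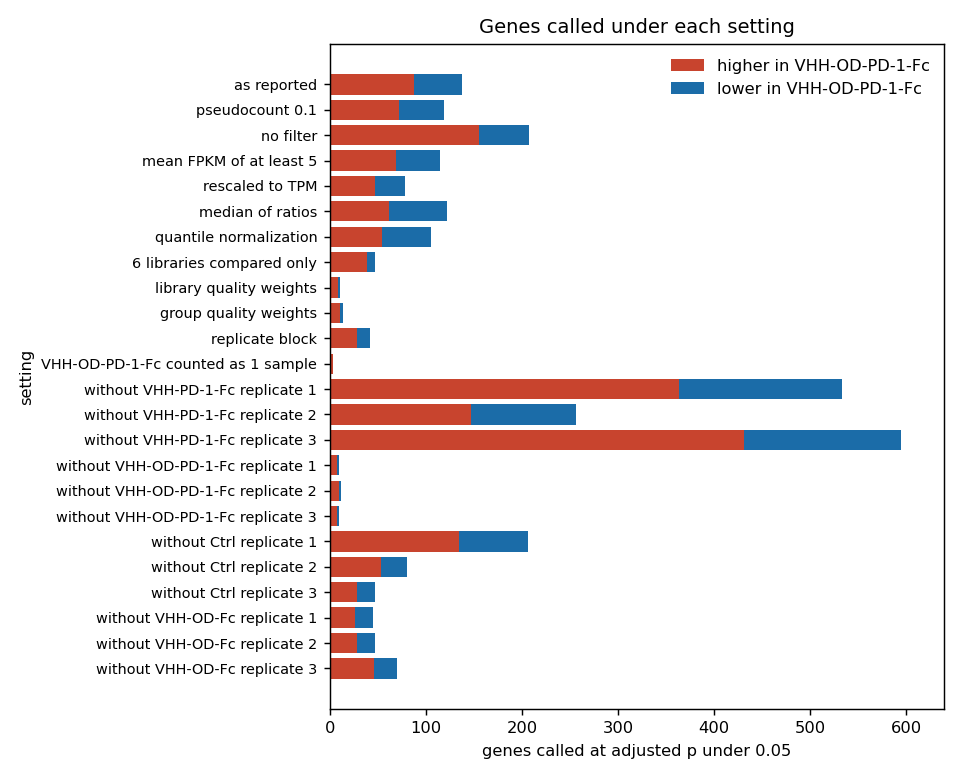
Number of genes called higher (red) and lower (blue) in VHH-OD-PD-1-Fc at an adjusted p under 0.05, in the reported fit and in 23 alternatives. Bars range from 3 genes with the dual-arm libraries treated as 1 sample to 595 without VHH-PD-1-Fc replicate 3.

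Gm15850 and Kif21b were each called in every setting in which they were tested. Gm15850 is an unnamed long non-coding RNA model, described here although the rule for named genes leaves such models out, because it had the smallest p of all genes. Its FPKM was 24.7, 22.7 and 23.1 in the VHH-OD-PD-1-Fc libraries and 0.0185, 0 and 0.00818 in the VHH-PD-1-Fc libraries. It was at most 0.115 in the 6 Ctrl and VHH-OD-Fc libraries, so the RNA was seen at more than trace level in VHH-OD-PD-1-Fc libraries alone among the 12. The log2 fold change was 4.60 (SE 0.10, limma adjusted p = 8.74e-10). Kif21b encodes a kinesin motor that moves along microtubules and lies next to Gm15850 in the RefSeq annotation, with no gene between them. Kif21b had an FPKM of 7.99, 8.53 and 8.56 with VHH-OD-PD-1-Fc and 0.770, 0.693 and 0.637 with VHH-PD-1-Fc. The Ctrl and VHH-OD-Fc libraries lay between, at 1.64 to 2.36. The log2 fold change of Kif21b was 2.46 (SE 0.10, limma adjusted p = 3.24e-07). Both genes were thus high in the same 3 libraries. The next gene tested on the side of Kif21b, Inava, had a log2 fold change of -0.29 (adjusted p = 0.716), and on the side of Gm15850, Tmem9 had -0.54 (adjusted p = 0.146). Whether counting used strand is not given in the sources used here, so reads of overlapping transcripts cannot be assigned with certainty.

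Atmin, a zinc finger cofactor of the ATM kinase in the DNA damage response, was the other gene called in all 23 settings. Its FPKM was 20.4, 21.1 and 21.4 with VHH-OD-PD-1-Fc and 6.40, 6.62 and 6.35 with VHH-PD-1-Fc. The remaining 6 libraries held 5.74 to 6.17, so all 9 libraries without the dual-arm nanobody lay between 5.74 and 6.62, below the other 3. The log2 fold change was 1.56 (SE 0.07, limma adjusted p = 5.78e-07). None of its tested neighbours was called, with log2 fold changes of 0.37 for Cenpn (adjusted p = 0.186), -0.04 for Cmc2 (adjusted p = 0.876) and 0.13 for Gcsh (adjusted p = 0.451).

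Cldn6 encodes claudin 6, a tight junction protein found mainly in embryonic epithelia. It had an FPKM of 42.1, 43.8 and 44.7 with VHH-OD-PD-1-Fc against 3.79, 6.34 and 1.46 with VHH-PD-1-Fc, and 0.334 to 1.60 in the Ctrl and VHH-OD-Fc libraries. The log2 fold change was 3.33 (SE 0.35, limma adjusted p = 0.00171, called in 22 of 23 settings). It was the 1 called member among 17 tested genes of the tumour epithelium list, whose median was 0.01 (-0.25 without VHH-PD-1-Fc replicate 3). The adjacent claudin gene Cldn9 had a log2 fold change of 1.43 with an adjusted p of 0.166. Of the 17 genes, 2 did not overlap upward and 2 downward, against 14.2% and 7.55% of all genes tested. The VHH-PD-1-Fc libraries enclosed the VHH-OD-PD-1-Fc libraries at Epcam and Krt18, with log2 fold changes of -0.46 and -0.11.

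Areg encodes amphiregulin, a ligand of the epidermal growth factor receptor. Its FPKM was 50.7, 47.3 and 45.3 with VHH-OD-PD-1-Fc and 8.83, 2.49 and 10.1 with VHH-PD-1-Fc (log2 fold change 2.75, SE 0.39, limma adjusted p = 0.0139, 18 of 23 settings). Ctrl and VHH-OD-Fc libraries held 18.6 to 37.1, above every VHH-PD-1-Fc library and below every VHH-OD-PD-1-Fc library. Ereg, which encodes the related ligand epiregulin and is the nearest gene to Areg, had a log2 fold change of 0.53 (adjusted p = 0.367).

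Jun, a subunit of the transcription factor AP-1, had an FPKM of 59.2, 56.9 and 55.9 with VHH-OD-PD-1-Fc and 22.6, 17.7 and 20.7 with VHH-PD-1-Fc. The log2 fold change was 1.46 (SE 0.14, limma adjusted p = 0.00115, 22 of 23 settings). In Ctrl and VHH-OD-Fc libraries Jun was higher than in either, at 78.4 to 109. Jun was the 1 called gene of 23 tested immediate early genes, which respond to growth factors and stress within minutes. All 23 had a positive log2 fold change, with a median of 0.62, and 16 showed no overlap. Among all genes, 58.8% were positive and 14.2% did not overlap upward. The mean log2(FPKM + 1) of the 23 was 4.40, 3.54 and 4.61 in VHH-PD-1-Fc replicates 1, 2 and 3. With VHH-OD-PD-1-Fc it was 4.94 to 4.98, so VHH-PD-1-Fc replicate 2 lay farthest from that group. Fos, the partner of Jun in AP-1, had an FPKM of 87.4, 86.4 and 89.6 with VHH-OD-PD-1-Fc and 31.4, 9.43 and 59.6 with VHH-PD-1-Fc. Its log2 fold change of 1.70 (SE 0.52) had an adjusted p of 0.136, and the VHH-PD-1-Fc libraries spread widely. Egr1, another early transcription factor, had 31.5, 31.2 and 31.7 against 12.0, 4.67 and 26.3, with an adjusted p of 0.175.

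The other genes of largest rise were mostly low. Xlr3c, an X-linked gene of a family of near-identical copies, had an FPKM of 1.77 to 2.90 with VHH-OD-PD-1-Fc and at most 0.0967 with VHH-PD-1-Fc (log2 fold change 1.62, 19 of 22 settings). Prl2c3, a prolactin-family gene with close paralogs, and Rpl39l, a paralog of the ribosomal protein gene Rpl39, had log2 fold changes of 1.84 and 1.69 and were called in 7 and 5 of 22 settings. The values of these 3 genes are uncertain, since reads can be split among copies. Ctsk encodes cathepsin K, a collagen-degrading protease. It had an FPKM of 61.7, 58.1 and 57.6 against 15.9, 24.6 and 18.7 (log2 fold change 1.56, adjusted p = 0.0367, 10 of 23 settings), below the 69.0 to 149 of the Ctrl and VHH-OD-Fc libraries. Itgb7, an integrin chain that guides lymphocytes to the gut, had 38.0, 36.2 and 36.9 against 17.3, 8.68 and 13.7 (log2 fold change 1.47, adjusted p = 0.0367, 11 of 23 settings).

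**Figure D3:**
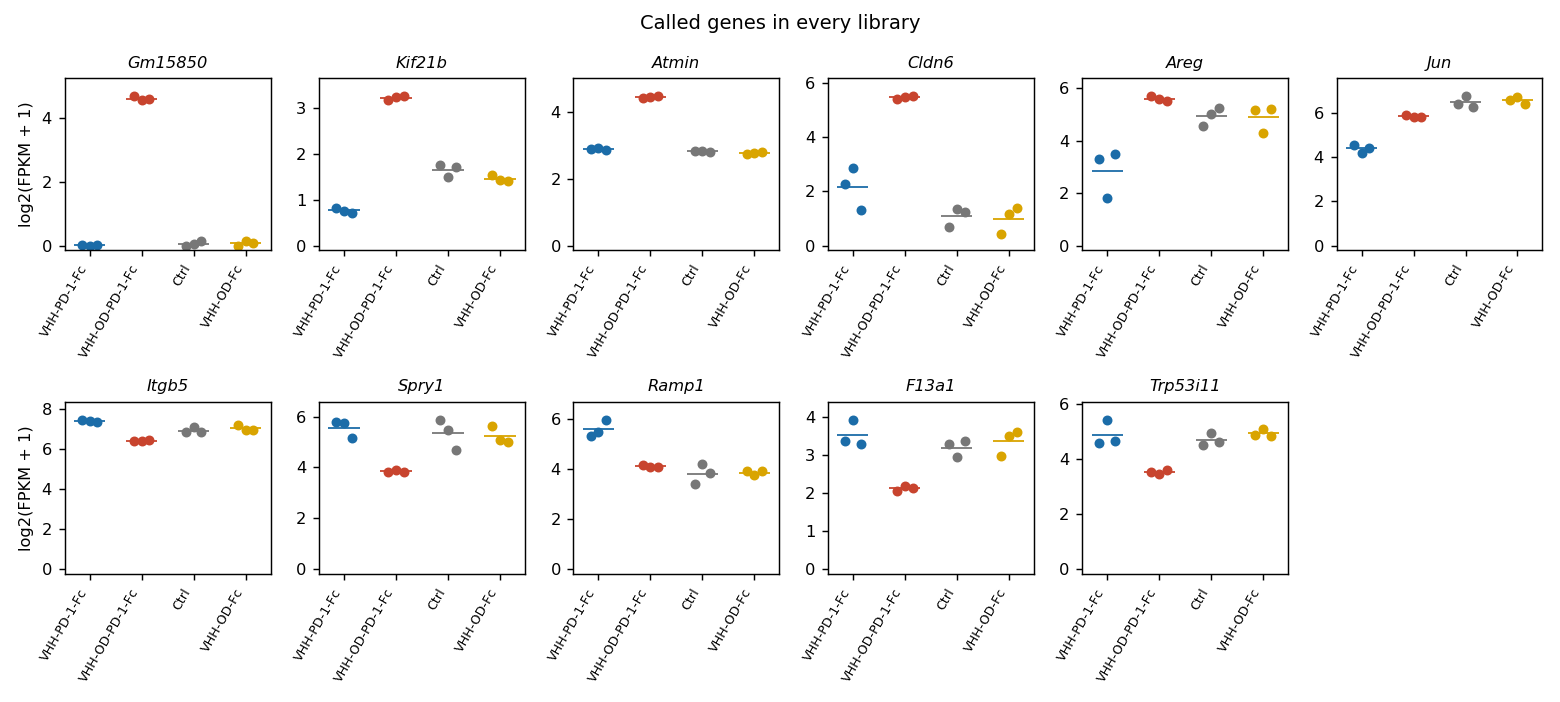
Log2(FPKM + 1) of leading called genes in each of the 12 libraries; points are libraries and horizontal lines group means of 3. In Gm15850, Kif21b, Atmin and Cldn6 the 3 VHH-OD-PD-1-Fc libraries lie above all others, in Jun the 3 VHH-PD-1-Fc libraries lie below all others, and in Spry1, F13a1 and Trp53i11 the 3 VHH-OD-PD-1-Fc libraries lie below all others.

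Among the genes that fell, Itgb5 and the unnamed model Gm38317 were called in the most settings, 22 of 23 each. Itgb5 encodes the beta 5 chain of a vitronectin-binding integrin. Its FPKM was 82.9, 83.6 and 84.8 with VHH-OD-PD-1-Fc and 172, 167 and 162 with VHH-PD-1-Fc, with a log2 fold change of -0.99 (SE 0.10, limma adjusted p = 0.0012, 22 of 23 settings). The Ctrl and VHH-OD-Fc libraries lay between, at 112 to 145, with no overlap on either side. Spry1, an inhibitor of receptor tyrosine kinase signalling to ERK, had 13.30, 13.99 and 13.29 against 54.1, 53.1 and 34.5 (log2 fold change -1.70, SE 0.28, adjusted p = 0.0232, 17 of 23 settings). Ramp1, a subunit of the receptor for the neuropeptide CGRP, had 16.9, 16.1 and 16.1 against 39.1, 43.9 and 60.9 (log2 fold change -1.47, SE 0.19, adjusted p = 0.0101, 19 of 23 settings). Spry1 with VHH-OD-PD-1-Fc was below all other libraries, whereas Ramp1 with VHH-PD-1-Fc was above all others and VHH-OD-PD-1-Fc lay within the range of 9.66 to 17.4 seen with Ctrl and VHH-OD-Fc.

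F13a1 encodes the catalytic chain of coagulation factor XIII and is made by macrophages and platelets. It had an FPKM of 3.18, 3.54 and 3.37 with VHH-OD-PD-1-Fc and 9.31, 14.2 and 8.75 with VHH-PD-1-Fc (log2 fold change -1.40, adjusted p = 0.0139). Trp53i11, a p53-induced gene, had 10.7, 10.0 and 11.3 against 23.1, 42.0 and 24.4 (log2 fold change -1.35, adjusted p = 0.0178). In both genes the lowest values of the 12 libraries were those with VHH-OD-PD-1-Fc. Other genes of largest fall were Sdsl, a serine dehydratase relative, the zinc finger genes Zfp13 and Zfp704, and Lrrn4cl, a leucine-rich repeat membrane protein gene, with log2 fold changes of -1.11 to -0.98. They were called in 11 to 15 of the other settings, and their means with VHH-OD-PD-1-Fc were 0.465 to 3.15 FPKM.

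The type I interferon effectors are genes such as Isg15, whose ubiquitin-like product is attached to proteins during infection, and the Oas genes, whose products sense double-stranded RNA. Of 38 listed genes, 37 were tested, 8 rose and none fell. The 8 were Isg15, Cmpk2, Oas1g, Oas3, Oas1a, Ifi44, Oasl2 and Xaf1. In all, 36 of 37 had a positive log2 fold change, with a median of 0.65 against 0.05 for all genes, and 27 showed no overlap between the groups. Of all genes tested, 0.680% were called higher and 14.2% did not overlap in that direction. Such genes share a promoter element, and 4 of the 8 hold its core, which reads GAAA, 2 bases of any kind and GAAA, on either strand, in the 300-base RefSeq promoter window (GRCm38.p6). The 100 bases before the start site are shown for these 4 genes because they hold the core, 5′ to 3′ along the gene with each match in capitals. The windows of Cmpk2, Ifi44, Oasl2 and Xaf1 hold no match and are not shown. Overlapping matches are merged.
Isg15 (chr4:156200819-156200918, minus strand): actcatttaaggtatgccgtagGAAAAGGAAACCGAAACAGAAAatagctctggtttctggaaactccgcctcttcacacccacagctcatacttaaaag
Oas1a (chr5:120907526-120907625, minus strand): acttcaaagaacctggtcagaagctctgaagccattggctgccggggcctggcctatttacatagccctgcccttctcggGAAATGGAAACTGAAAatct
Oas1g (chr5:120887614-120887713, minus strand): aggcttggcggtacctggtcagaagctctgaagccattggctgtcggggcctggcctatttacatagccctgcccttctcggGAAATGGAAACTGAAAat
Oas3 (chr5:120777660-120777759, minus strand): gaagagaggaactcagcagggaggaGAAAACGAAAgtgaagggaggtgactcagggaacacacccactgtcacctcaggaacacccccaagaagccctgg
Isg15 holds 3 overlapping matches, starting 78, 72 and 66 bases before the start site, and Oas1a and Oas1g hold 2 each. The windows of Oas1a and Oas1g are nearly alike, as are the genes, so reads of these paralogs may be split between them. Of the 26 tested list members found in the promoter table, 13 (50.0%) hold the core, against 3.90% of the 8852 tested genes in that table. A match is a description of these letters and does not show that a factor bound there.

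Among the interferon genes, Isg15 had an FPKM of 97.1, 86.2 and 92.3 with VHH-OD-PD-1-Fc and 37.1, 38.6 and 26.6 with VHH-PD-1-Fc (log2 fold change 1.42, SE 0.27, limma adjusted p = 0.0384, 12 of 23 settings). Cmpk2, a mitochondrial nucleotide kinase induced by interferon, had 4.72, 4.79 and 5.32 against 1.90, 1.34 and 1.19 (log2 fold change 1.27, adjusted p = 0.0153, 16 of 22 settings). Oas1a had 29.8, 30.7 and 29.2 against 15.4, 19.0 and 14.9 (log2 fold change 0.83, adjusted p = 0.0135, 16 of 23 settings). Each of these genes was higher in every VHH-OD-PD-1-Fc library than in any VHH-PD-1-Fc library. Ifi44, an interferon-induced cytoplasmic protein gene, had 12.2, 12.9 and 12.4 against 6.04, 6.93 and 6.93 (log2 fold change 0.82, adjusted p = 0.0196, 17 of 23 settings). Xaf1, which encodes an antagonist of the apoptosis inhibitor XIAP, had 12.3, 12.1 and 11.3 against 7.75, 6.01 and 8.03 (log2 fold change 0.65, adjusted p = 0.0216, 16 of 23 settings). None of the 8 was called when the dual-arm libraries were treated as 1 sample.

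The level of the interferon list, as the mean log2(FPKM + 1) of its 37 tested genes, was 2.99 to 3.07 in the VHH-PD-1-Fc libraries and 3.66 to 3.68 in the VHH-OD-PD-1-Fc libraries. It was 3.60 to 3.86 with VHH-OD-Fc and 3.92 to 4.47 with Ctrl. VHH-PD-1-Fc libraries were thus the lowest of the 12, and VHH-OD-PD-1-Fc libraries lay within the VHH-OD-Fc range. In 21 of the 37 genes all 3 VHH-PD-1-Fc libraries were below the other 9, whereas over all genes tested they were outside the other 9 in either direction in 8.72%. The 6 libraries of Ctrl and VHH-OD-Fc had a sum of FPKM of 327792 to 345596, against 388142 to 401179 in the 6 compared here, and these levels across the series are given side by side with no test.

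**Figure D4:**
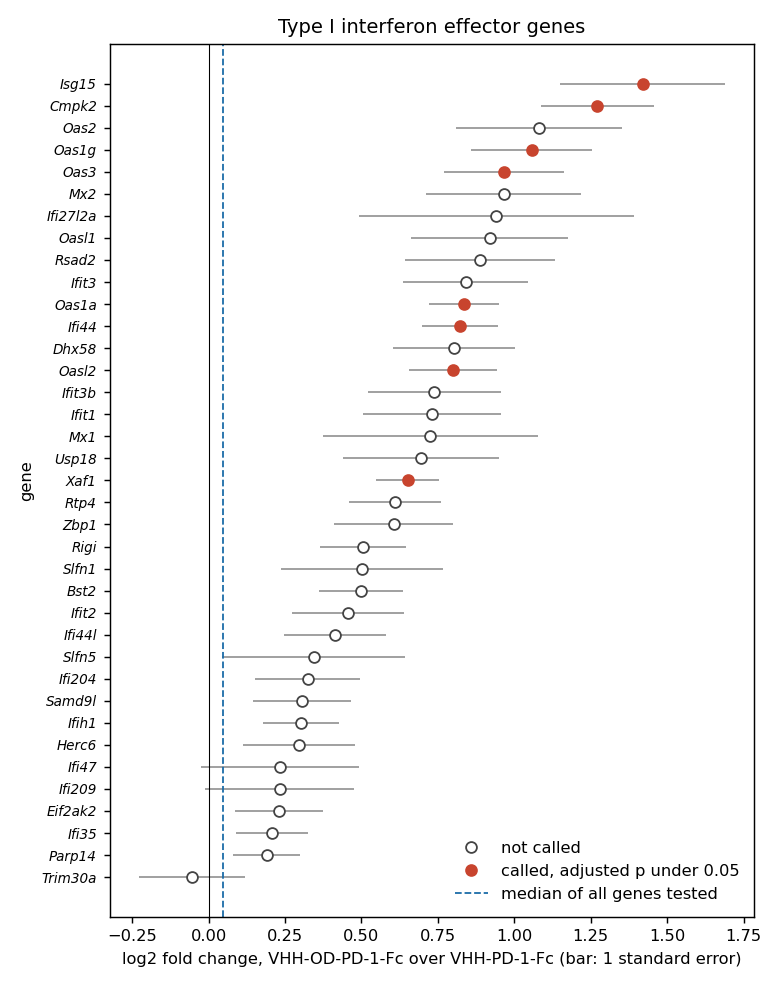
Log2 fold change of VHH-OD-PD-1-Fc over VHH-PD-1-Fc for the 37 tested type I interferon effector genes, with bars of 1 standard error; filled points were called and the dashed line is the median of all genes tested, 0.05. All genes but Trim30a lie to the right of 0, and 8 are filled.

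Related lists held no called gene. None of the 20 tested interferon gamma GTPase and chemokine genes was called. Their median was 0.44, and 0.06 without VHH-PD-1-Fc replicate 2. None of 24 interferon signalling genes was called, with a median of 0.11. Within the latter, Stat2, a subunit of the complex that binds the promoter element, had an FPKM of 15.9, 15.5 and 16.4 against 10.5, 7.38 and 8.29 and missed the threshold (log2 fold change 0.81, adjusted p = 0.0533). Class I antigen presentation had 0 called of 21 genes and a median of 0.25, which was 0.09 without VHH-PD-1-Fc replicate 2, and class II had 0 of 12 and a median of 0.02. At an unadjusted p under 0.05, there were 6 genes higher of the interferon gamma list, 3 of the signalling list, 5 of the class I list and 0 of the class II list. Over all genes, 10.9% were higher at an unadjusted p under 0.05.

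PD-1 itself and the T cell compartment showed no called gene. Pdcd1 had an FPKM of 2.61, 1.91 and 1.94 with VHH-OD-PD-1-Fc and 4.44, 2.03 and 3.55 with VHH-PD-1-Fc (log2 fold change -0.43, SE 0.21, adjusted p = 0.338). Cd274, which encodes the PD-1 ligand PD-L1, had 6.02, 6.29 and 6.73 against 6.15, 1.44 and 5.67 (0.59, SE 0.33, adjusted p = 0.406). The groups overlapped at both genes. Cd8a, a chain of the CD8 coreceptor of cytotoxic T cells, had 2.38, 2.66 and 1.86 against 5.01, 1.26 and 2.54 (-0.15, SE 0.31, adjusted p = 0.861). Gzmb and Prf1, which encode the killing proteins granzyme B and perforin, had log2 fold changes of 0.64 (SE 0.40, adjusted p = 0.465) and 0.00 (SE 0.27, adjusted p = 0.995). Over 11 tested T cell markers the median was -0.15, over 11 cytotoxic markers 0.00 and over 10 inhibitory receptors and ligands 0.09. In each list 0 were called, and over all genes tested 1.07% were. At an unadjusted p under 0.05 in limma, the T cell and cytotoxic lists each had 1 gene higher and 1 lower. The inhibitory list had 0 higher and 1 lower. Over all genes, 10.9% were higher and 5.46% lower at that threshold. The T cell median was 0.21 without VHH-PD-1-Fc replicate 1 and -0.45 without replicate 2, so it had no stable direction. Cd4, Foxp3, Ifng and Pdcd1lg2 were below the filter. In bulk tumour RNA, fewer cells of a type and less RNA per cell cannot be told apart.

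The sodium pump genes, the targets of digoxin-like compounds, also held no called member. Atp1b1, a beta subunit of Na,K-ATPase, was low in both groups, with means of 1.30 and 1.80 FPKM and a log2 fold change of -0.11 (SE 0.51, adjusted p = 0.944). Of 14 pump and FXYD regulator genes, 8 were tested and the median was -0.02, which changed sign without VHH-PD-1-Fc replicate 1 (0.04) or 2 (0.09). At an unadjusted p under 0.05 in limma there were 0 of the 8, against 16.3% of all genes. Over all genes tested, 1.07% were called.

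Lists of myeloid cells and their attractants held no called gene, and their medians differed in sign. Neutrophil markers had 17 of 18 positive and a median of 0.83, and their summed FPKM was 2628 to 2666 with VHH-OD-PD-1-Fc and 724 to 2187 with VHH-PD-1-Fc. The calcium-binding protein gene S100a9, among the most abundant RNAs of neutrophils, had an FPKM of 1224, 1198 and 1239 against 727, 226 and 379 (log2 fold change 1.62, SE 0.47, adjusted p = 0.124). Chemokines that draw neutrophils and monocytes had 15 of 19 positive and a median of 0.87. Cxcl1, a neutrophil attractant, had 121, 116 and 120 against 57.4, 4.35 and 29.9 (log2 fold change 2.49, SE 0.66, adjusted p = 0.0979). Ccl7, a monocyte attractant, had 27.0, 23.6 and 23.1 against 8.36, 8.79 and 5.65 (log2 fold change 1.59, SE 0.42, adjusted p = 0.0957). The groups did not overlap at these 3 genes, and the spread within VHH-PD-1-Fc was wide. Without VHH-PD-1-Fc replicate 2 the chemokine median was 0.54, and without replicate 3 it was 0.56. Inflammatory cytokine genes had 20 of 21 positive and a median of 0.65, again with 0 called, and the median was 0.27 without VHH-PD-1-Fc replicate 2. At an unadjusted p under 0.05 there were 8 neutrophil, 8 chemokine and 9 cytokine genes higher, against 10.9% of all genes, and 1 chemokine gene lower. Macrophage and monocyte markers had a median of -0.13 over 16 genes, which was 0.18 without VHH-PD-1-Fc replicate 2. Their summed FPKM was 2206 to 2221 with VHH-OD-PD-1-Fc and 2068 to 6716 with VHH-PD-1-Fc. At an unadjusted p under 0.05 in limma, 2 of the 16 were lower and 0 higher, against 5.46% and 10.9% of all genes. The 2 were Lyz2 and Apoe, with log2 fold changes of -1.14 and -1.30.

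**Figure D5:**
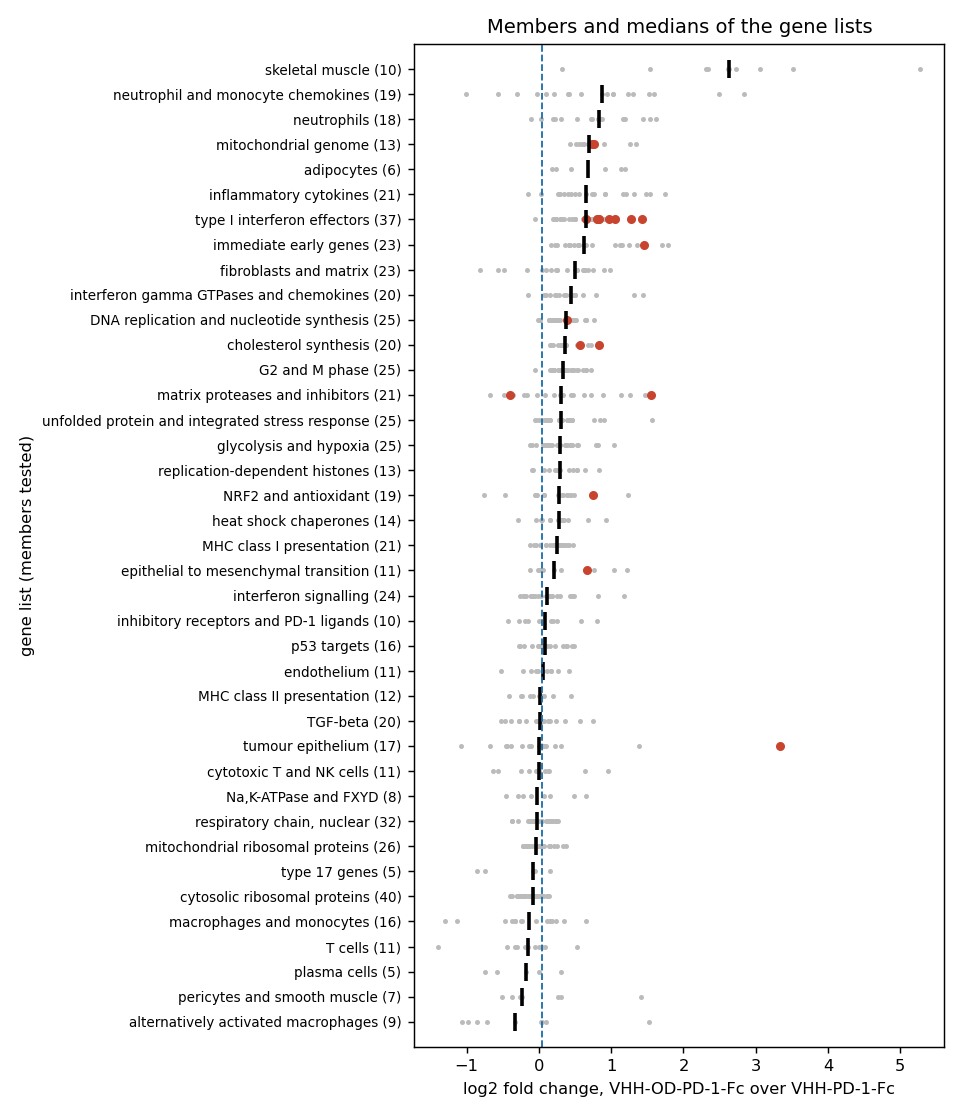
Log2 fold change of VHH-OD-PD-1-Fc over VHH-PD-1-Fc for the tested members of each gene list with at least 5 of them (grey points; red points were called), with the list median as a black tick and the median of all genes, 0.05, as a dashed line. Skeletal muscle has the highest median, 2.62, with no called gene, and the type I interferon list holds the most called genes, 8.

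Markers of other tissue also differed in level between libraries. Skeletal muscle genes were positive in 10 of 10 tested with a median of 2.62 (4.57 with a pseudocount of 0.1), and 8 showed no overlap (14.2% of all genes upward), yet none was called. Their summed FPKM was 247 to 251 with VHH-OD-PD-1-Fc and 50.4 to 63.5 with VHH-PD-1-Fc. It ranged from 64.7 to 378 with Ctrl and from 50.0 to 2507 with VHH-OD-Fc. Acta1, the actin of skeletal muscle, had 117, 124 and 123 against 19.0, 0.209 and 0.302. The 3 VHH-OD-PD-1-Fc libraries thus held nearly the same amount of muscle RNA, whereas libraries within each other group differed many-fold in this gene. Adipocyte genes were positive in 6 of 6 with a median of 0.68 (0.12 without VHH-PD-1-Fc replicate 1), and red blood cell genes in 4 of 4 with a median of 0.78, with 0 called in each. The part of these tissues in the differences above was not tested.

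Few genes were called in the lists of metabolism and growth. Over all genes tested, 58.8% were positive, 14.2% did not overlap upward and 0.680% were called higher. Cholesterol synthesis genes were positive in 20 of 20 with a median of 0.37 (0.55 without VHH-PD-1-Fc replicate 1). Of the 20, 14 showed no overlap upward and 2 were called. Sqle, the squalene epoxidase of the pathway, had a mean FPKM of 22.3 ± 0.387 (SD, n = 3) against 12.3 ± 2.63 (log2 fold change 0.83, adjusted p = 0.0222, 16 of 23 settings), and Nsdhl, a later enzyme, had 15.6, 17.6 and 17.6 against 11.0, 10.7 and 11.4 (0.57, adjusted p = 0.0262, 13 of 23 settings). Genes of the mitochondrial genome were positive in 13 of 13 with a median of 0.70, and 10 showed no overlap upward. Of these, mt-Co1 and mt-Co2, subunits of cytochrome c oxidase, were called, with log2 fold changes of 0.74 (adjusted p = 0.048) and 0.76 (adjusted p = 0.0492), in 5 and 4 of 23 settings. The nuclear genes of the respiratory chain had 0 called of 32 and a median of -0.03, so the nuclear and mitochondrial lists differed in median by more than the shift of all genes.

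In the cell cycle, Mcm2, a subunit of the replicative helicase, was the 1 called gene of 25 replication genes. Its log2 fold change was 0.39 (limma adjusted p = 0.0486, called in 5 of 23 settings). The replication list had a median of 0.38, or 0.24 without VHH-PD-1-Fc replicate 1. Of its 25 genes, 24 were positive, 13 showed no overlap upward and 14 were higher at an unadjusted p under 0.05 in limma. Over all genes tested these shares were 58.8%, 14.2% and 10.9%. Genes of the G2 and M phases had 0 called of 25 and a median of 0.33, which was 0.57 without VHH-PD-1-Fc replicate 3. Of these 25, 24 were positive, 11 showed no overlap upward and 13 were higher at an unadjusted p under 0.05 in limma. Mki67, a marker of cycling cells, had a log2 fold change of 0.28 (SE 0.24, adjusted p = 0.608). Ribosomal protein genes of the cytosol had 0 called of 40 and a median of -0.09 (-0.03 without VHH-PD-1-Fc replicate 2). Of the 40, 30 were negative. No overlap downward was seen at 12, against 7.55% of all genes, and 8 were lower at an unadjusted p under 0.05 in limma, against 5.46%.

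Nqo1, a quinone reductase induced by the oxidant-sensing factor NRF2, had an FPKM of 5.01, 4.81 and 5.24 with VHH-OD-PD-1-Fc and 2.85, 2.22 and 2.75 with VHH-PD-1-Fc (log2 fold change 0.74, adjusted p = 0.0112, 16 of 22 settings). It was the 1 called gene of 19 in its list, which had a median of 0.29, or 0.19 without VHH-PD-1-Fc replicate 2. Vim encodes vimentin, the intermediate filament of mesenchymal cells, and had 1319, 1322 and 1295 against 719, 827 and 941 (0.67, adjusted p = 0.0367, 7 of 23 settings). It was the 1 called of 11 genes of epithelial to mesenchymal transition. Timp2, an inhibitor of matrix metalloproteases, fell from 142, 139 and 123 to 102, 101 and 102 (-0.40, adjusted p = 0.0456, 7 of 23 settings). With Ctsk, which rose, it made up the 2 called of 21 genes of matrix proteases and inhibitors, whose median was 0.31 (0.03 without VHH-PD-1-Fc replicate 2). The fibroblast and matrix list had 0 called of 23 and a median of 0.50 (0.18 without VHH-PD-1-Fc replicate 1). Of its 23 genes, 10 did not overlap upward and 3 downward, against 14.2% and 7.55% of all genes. At an unadjusted p under 0.05 in limma, 6 were higher and 2 lower, against 10.9% and 5.46%. Over all genes tested, 0.680% were called higher and 0.386% lower.

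The place of the called genes among all 12 libraries was uneven. At 87 of the 138 (63.0%) the 3 VHH-OD-PD-1-Fc libraries lay outside the range of the other 9, and at 63 (45.7%) the 3 VHH-PD-1-Fc libraries did, with 14 genes in both sets and 2 in neither. Over all genes tested these shares were 6.96% and 8.72%. Since a call requires the groups to stand apart, the shares among called genes are a description. Kif21b, Areg and Itgb5 are among the 14, each with both compared groups at opposite ends and the Ctrl and VHH-OD-Fc libraries between. The 6 compared libraries also differed in general from the other 6. Their median log2(FPKM + 1) over the genes tested was 2.77 to 2.89, against 3.03 to 3.14 with Ctrl and VHH-OD-Fc. Pearson's r was 0.963 to 0.992 between Ctrl and VHH-OD-Fc libraries, and 0.896 to 0.944 between VHH-PD-1-Fc and Ctrl. Placements were not adjusted for this.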

How the data were processed

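From mouse tumours, 12 libraries, 3 per group, were sequenced as paired reads of 150 bp after enrichment of poly(A) RNA, per the labels' protocols. Per the submitters' processing notes, reads were handled with fastp 0.22.0 and HISAT2 2.2.1. Those notes give GRCh38 as the build, which is human, whereas symbols in the deposited table are those of mouse genes. The authors deposited FPKM values for 41009 genes in 12 library columns, matched to samples by name. The sources used here do not give the method, annotation or strand setting behind FPKM, and a count model was not applied.

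Depth was estimated from genes with 1 transcript in GENCODE M21 as FPKM times transcript length. Between 95.8% and 96.7% of low values in the 12 libraries lay within 0.05 of a whole number of steps, which put the depth at 44000000 to 61400000 counts per library. Whether such a count is a fragment or 1 read of a pair is unknown.

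Deposited FPKM values were tested as log2(FPKM + 1) with limma 3.58.1 in R 4.3.3, with no further scaling. This scale understates changes of low genes. The 12 libraries shared 1 model of 4 group means (8 residual and 3.20 prior degrees of freedom, variance trend on). Calls were two-sided at a Benjamini-Hochberg adjusted p under 0.05 over all 12937 tested genes. The fit was also run on simulated data with independent libraries and the same spread per gene in all groups. That run therefore does not bear on the unequal spread of the real groups. Results for some items are not reported here. An SE is limma's moderated standard error.

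Named genes were the 10 largest called rises and 10 largest called falls without overlap and with a group mean FPKM of 1 or more in either, up to 4 called members per list of smallest p, and 12 genes taken always (among them Pdcd1, Cd274, Pdcd1lg2, Cd8a, Cd4, Gzmb, Ifng, Prf1, Foxp3, Atp1b1 and Mki67). The rule names no pseudogene, V segment or model without a proper name, which are only counted. Gm15850, Gm38317, genes beside the leading genes, and uncalled list members were chosen after their values were seen. The comparison, the 45 gene lists and the tests were chosen with earlier results of these data known. Promoter windows (RefSeq, GRCm38.p6) were matched by symbol for 8852 of the 12937 tested genes. Neighbours come from the RefSeq annotation of the same assembly, which may not be the one behind the table. Deviations of same-numbered libraries from their group means correlated at -0.008, 0.006 and 0.058, so replicate numbers were not taken as pairs. The 23 alternatives varied the pseudocount, filter, scaling, weights, libraries and the replicate block.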

Additional observations from a re-analysis of the deposited data

How the results depend on the processing

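The count of 138 calls stayed within 1.5 times with a pseudocount of 0.1, a mean FPKM of at least 5, median of ratios, quantile normalization or no filter (207 calls, 155 higher). Calls shared with the 138 numbered 112, 93, 104, 92 and 85, in that order. The filter on mean FPKM tested 7319 genes and left out some of the 138, Kif21b among them. The fit without a filter tested 38627 genes. Counts of shared calls in these 2 settings therefore also reflect which genes were tested. The number of calls was 78 after rescaling to TPM (47 higher, 31 lower) and 47 with the 6 compared libraries only (39 and 8). It was 11 with library quality weights (8 and 3) and 14 with group quality weights (10 and 4). Treating the dual-arm libraries as 1 sample left 3 (3 and 0), with 523 genes at an unadjusted p under 0.05 in limma. Higher calls numbered 54 with quantile normalization. Leaving out 1 library gave 9 to 595 calls, 7 to 431 higher and 2 to 169 lower. The replicate block gave 42 calls (28 and 14), of which 41 were among the 138, and the numbers do not pair the libraries. The median of all genes, 0.046, was -0.0079 with median of ratios and 0.00056 with quantile normalization. Of the values of named genes under the alternatives, 633 kept direction and call, 266 lost the call, and 7 changed sign, all of uncalled genes. For uncalled genes, the log2 fold change of Prf1 was -0.043 with median of ratios, -0.0560 with quantile normalization, and -0.16 to 0.14 when 1 library was left out (-0.10 without VHH-OD-PD-1-Fc replicate 3). Likewise, the log2 fold change of Cd8a was -0.49 to 0.21 and the log2 fold change of Atp1b1 was -0.61 to 0.30 when 1 library was left out, and Atp1b1 was 0.085 with a pseudocount of 0.1. The median of the type I interferon list was 0.57 (quantile normalization) to 0.72 (pseudocount 0.1) over the alternatives. Why the counts moved was not tested. FPKM values near 1 rest on few reads for short transcripts, which limits the low genes.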

Other observations

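Some called genes outside the lists were chosen here after their values were seen, and no theme is claimed for them. Spry2 and Dusp6, which like Spry1 are feedback inhibitors of ERK signalling, were higher with VHH-OD-PD-1-Fc, whereas Spry1 was lower. Spry2 had an FPKM of 17.2, 18.2 and 19.2 against 11.5, 8.55 and 11.2 with VHH-PD-1-Fc (log2 fold change 0.76, limma adjusted p = 0.0255, called in 14 of 23 settings), and Dusp6 had 72.5, 71.3 and 70.1 against 36.0, 33.0 and 53.9 (0.82, adjusted p = 0.0494, 3 of 23 settings). Dusp10, a phosphatase of JNK and p38, had 8.83, 9.56 and 9.24 against 5.00, 3.03 and 3.56 (1.09, adjusted p = 0.0135, 18 of 23 settings), and the stress kinase gene Plk3 had 44.0, 45.1 and 43.5 against 24.7, 14.7 and 21.6 (1.11, adjusted p = 0.0139, 17 of 23 settings).

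Ndc1, Nup107, Nup93 and Aaas encode nuclear pore subunits and were picked from the 138 calls, with no list of pore genes counted. They had log2 fold changes of 0.54 to 0.55 and adjusted p of 0.0341 to 0.045 (limma), and were called in 5 to 11 of 23 settings. Ndc1 had an FPKM of 9.20, 8.45 and 8.16 against 5.06, 5.63 and 5.97, and Aaas had 19.4, 18.4 and 19.5 against 13.7, 12.8 and 12.1.

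Called genes known to respond to interferon but absent from the lists included Ifitm3, a membrane protein that blocks virus entry, with 2011, 2026 and 1968 against 1344, 1456 and 1384 (0.52, adjusted p = 0.0251), and Rnf213, a large ubiquitin ligase, with 8.56, 8.33 and 8.42 against 4.53, 5.72 and 4.94 (0.64, adjusted p = 0.0318), each in 12 of 23 settings. Apol11b, an apolipoprotein L gene, had 2.03, 1.96 and 1.66 against 0.187, 0 and 0.00786 (1.44, adjusted p = 0.0012, 21 of 22 settings). The unnamed model Gm38317 had the largest fall among the called genes, to 5.65, 5.66 and 5.42 from 30.05, 19.8 and 15.6 (-1.74, adjusted p = 0.00125, 22 of 23 settings).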
